A study of Mus musculus with 9 samples.

Results

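Testis mRNA of 8 genes encoding EF-hand proteins of cilia and sperm was compared between WT mice and mice lacking the transcription factor RFX2. The genes (Efhc2, Efhb, Efcab1, Efcab2, Efcab5, Efcab6, Efcab9 and Efcab10) were found by symbol in the GENCODE M21 annotation among the 23074 Ensembl genes of the count table, and all 8 were present and passed the filter on low counts. RNA-Seq libraries came from decapsulated testes, 1 per mouse, of 5 WT and 4 Rfx2-/- animals aged 29 to 30 days (P30) on a mixed C57BL/6, 129/Sv and FVB/N background. The Rfx2-/- allele lacks a single exon, removed by an ACTB-cre transgene that is active throughout the animal, so the deletion is not limited to germ cells. In whole testis, fewer cells of a type and less RNA per cell cannot be told apart. Depth ranged from 13574764 to 15193330 counts per library, except Rfx2-/- replicate 1 with 28800855. A pair of libraries stood apart, and results of the 8 genes are given with and without them where they matter. WT replicate 3 had the lowest level of 7 of the 8 genes among WT libraries. Rfx2-/- replicate 2 differed from the other knockouts by transcript length.

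An EF-hand is a helix-loop-helix fold whose loop can hold a calcium ion, and proteins that carry it act as calcium sensors or as structural parts. The beating of cilia and of the sperm tail is controlled by calcium, and several EF-hand proteins are built into the axoneme, the bundle of microtubules and dynein motors that drives the beat. Others sit in the plasma membrane channel through which calcium enters the sperm tail. RFX factors activate ciliary genes through the X-box, an inverted repeat in their promoters.

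The genes were first examined for the X-box. RefSeq promoter sequences (GRCm38.p6) were at hand for 4 of the 8 genes, and the 250 bases before the start site were searched for the inverted repeat GTTGCCNNGGCAAC, which reads the same on both strands, allowing mismatches at its 12 fixed positions. Efcab10 was the only one of the 4 that was downregulated, and no sequence was at hand for Efcab1, Efhb, Efcab2 or Efcab6. A link between the match and the change in expression was not tested. The best match of each gene follows, 5′ to 3′ on the strand of the gene, with the 14 bases of the match in capitals.
Efcab10: tgagacctCCTGCCAGGGCAACcctgaggg
Efcab9: gcatccttCTTGTCTGGGCATCctgtgatt
Efhc2: aaGGTGCCCAGCCAGCagggctgt
Efcab5: aaagtacaGCTGCCGTGGAAGAaaaatctt

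The Efcab10 sequence (chr12:33394698-33394727, plus strand) matched at 10 of the 12 positions and held an intact GGCAAC arm, 148 to 135 bases before the start. A match this close or closer was present in 2.31% of the 32851 promoters in the RefSeq table, and an intact arm in either orientation in 10.4%. The sequences of Efcab9 (chr11:32527736-32527765, minus strand) and Efhc2 (chrX:17320168-17320191, minus strand) matched at 9 positions, as did at least that many in 11.6% of all promoters. Efcab5 (chr11:77189129-77189158, minus strand) matched at 8, a level reached by 53.1% of promoters, and no intact arm was found for Efcab9, Efhc2 or Efcab5. The RefSeq and GENCODE starts were identical for Efcab10 and Efcab5 and lay 4507 bases apart for Efcab9 and 573 bases apart for Efhc2. These matches describe the sequence and do not show binding. Efcab10, Efcab1, Efhb and Efcab6 were in the study's list of genes with an RFX2 ChIP-Seq peak at the promoter, from germ cells dissociated from testes of younger WT mice. Of these 4, Efcab10 and Efcab1 were downregulated and Efhb and Efcab6 were not. The share of all genes in that list is not given here.

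The targeted gene was checked first. Rfx2 had 559.7, 552, 471, 541 and 624 CPM (counts relative to the TMM-scaled library size) in the 5 WT libraries, and the 4 knockouts had 199, 61.5, 151 and 173 CPM. The knockout level was 26.6% of WT on average and the genotypes did not overlap. Counts were not resolved by exon, so these reads could not be assigned to a part of the gene here. The paper reports that no RNA-Seq reads fell on the deleted exon and that RFX2 protein was undetectable in Rfx2-/- testes.

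Of the 8 genes, Efcab10 and Efcab1 were downregulated 10.3-fold and 9.25-fold in Rfx2-/- testes, and the other 6 were not called in either direction. Calls required an edgeR adjusted p of at most 0.01 together with a change of more than 2-fold. By this rule 3.68% of the 15613 genes tested were lower and 0.826% higher, compared with 2 and 0 of the 8 genes. With an adjusted p of at most 0.05 as the single limit, 7.31% of all genes were lower and 3.48% higher, again compared with 2 and 0 of the 8. The median log2 fold change of the 8 genes was -0.21, with 7 of 8 below 0. That of all genes tested was 0.03, with 7316 of 15613 below 0. Efhc2 (-0.02), Efhb (-0.09) and Efcab2 (-0.08) changed sign when libraries were scaled by total counts. Without WT replicate 3 the log2 fold change was -3.42 for Efcab10 and -3.29 for Efcab1, and -0.37 for Efcab6 and 0.25 for Efcab9, which remained uncalled. Genotypes did not overlap for Efcab10 and Efcab1 and overlapped for the other 6. Among all genes tested the knockout libraries were entirely below WT in 9.7% and entirely above in 6.16%.

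**Figure D1:**
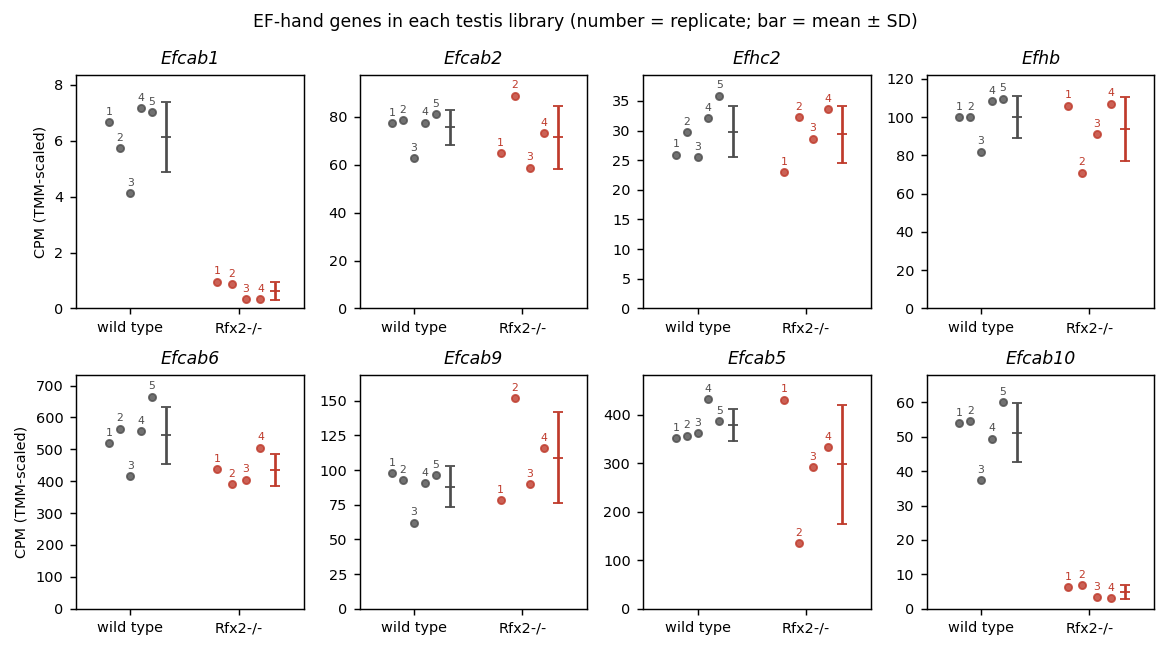
TMM-scaled CPM (linear axis from 0) of the 8 EF-hand genes in each of the 5 WT (grey) and 4 Rfx2-/- (red) libraries, numbered by replicate, with the mean ± SD at the side. Efcab1 and Efcab10 are below every WT library in all 4 knockouts, and the genotypes overlap for the other 6 genes.

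Efcab10 (ENSMUSG00000020562, GRCm38 chromosome 12, 33394854 to 33401267) is the shortest of the 8 genes, with 673 bases of exon, and encodes a small EF-hand protein. It had 54.1, 54.7, 37.3, 49.5 and 60.1 CPM in WT replicates 1 to 5, and knockout replicates 1 to 4 had 6.31, 6.82, 3.41 and 3.07 CPM. Every knockout library was thus far below the lowest WT library. The means were 51.1 ± 8.60 CPM (SD, n = 5) and 4.90 ± 1.94 CPM (SD, n = 4), so that 9.59% of the WT level remained. On the log2 scale the change was -3.37 (SE 0.26; edgeR, adjusted p 3.70e-06), the lowest of the 8 and the 125th lowest of the 15613 genes tested. The RNA that remained was well above the detection limit, since the lowest knockout library held 47 counts (exact Poisson 95% interval 34.5 to 62.5, counting error only).

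Efcab1 (ENSMUSG00000068617, chromosome 16, 14906606 to 14981371) encodes calaxin, a calcium sensor that binds the outer dynein arms of the axoneme. It was the least expressed of the 8 genes, with 6.65, 5.73, 4.12, 7.15 and 7.02 CPM in WT replicates 1 to 5. In Rfx2-/- replicates 1 to 4 it had 0.963, 0.869, 0.341 and 0.327 CPM, which correspond to 29, 13, 5 and 5 counts. All knockout libraries were again below all WT libraries. The mean fell from 6.14 ± 1.25 CPM (SD, n = 5) to 0.625 ± 0.34 CPM (SD, n = 4), or 10.2% of WT, equal to -3.21 on the log2 scale (SE 0.33; edgeR, adjusted p 3.87e-05). With 5 counts the exact Poisson 95% interval is 1.62 to 11.7 counts, so that the level in Rfx2-/- replicates 3 and 4 is known to within several-fold only.

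In both genes the residual levels of Rfx2-/- replicates 1 and 2 were above those of replicates 3 and 4, a pattern noticed after the values were seen. It was found in 103 of the 575 downregulated genes (17.9%) and in 7.23% of all genes tested. Such an order of 4 libraries also arises at random, and the pattern was not tested. For Efcab1 the order was not resolved by counting. Its exact Poisson 95% intervals were 0.463 to 1.49 CPM in Rfx2-/- replicate 2 and 0.111 to 0.795 CPM in Rfx2-/- replicate 3. The count of Efcab10 relative to Efcab1 was 8.13, 9.54, 9.05, 6.92 and 8.57 in WT replicates 1 to 5, and knockout replicates 1 to 4 had 6.55, 7.85, 10.0 and 9.40. The ratio was 8.44 ± 1.0 in WT (SD, n = 5) and 8.45 ± 1.56 in Rfx2-/- testes (SD, n = 4), and the ranges overlapped. Efcab10 had the higher count of the pair in every library.

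Efhc2, Efhb and Efcab6 encode proteins linked to the wall of the axonemal doublet microtubules, and none of the 3 was called. Efhc2 (ENSMUSG00000025038, chromosome X, 17132049 to 17319368) had 25.9, 29.7, 25.5, 32.2 and 35.9 CPM in WT replicates 1 to 5, and knockout replicates 1 to 4 had 22.9, 32.3, 28.6 and 33.6 CPM. The knockout libraries spread over the WT range and slightly below it. The means of 29.8 ± 4.36 CPM (SD, n = 5) and 29.4 ± 4.78 CPM (SD, n = 4) gave a log2 fold change of -0.02 (95% interval -0.37 to 0.32, edgeR adjusted p 0.937). The interval leaves knockout levels from 77.4% to 125% of WT.

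Efhb (ENSMUSG00000023931, chromosome 17, 53398889 to 53463321) had 100.1, 100.1, 81.9, 108 and 109.6 CPM in WT replicates 1 to 5, and knockout replicates 1 to 4 had 106, 71.01, 91.1 and 107 CPM. Only Rfx2-/- replicate 2 lay below the WT range. The log2 fold change was -0.09 (95% interval -0.43 to 0.25, edgeR adjusted p 0.727). It was 0.020 without Rfx2-/- replicate 2. Efhb shared 0.807% of its 50-base transcript pieces with other genes, and the other 7 genes shared none.

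Efcab6 (ENSMUSG00000022441, chromosome 15, 83866712 to 84065379) encodes a large EF-hand protein of testis that is known to bind DJ-1 and the androgen receptor. It was the most abundant of the 8 genes, with 519, 565, 416, 556 and 665 CPM in WT replicates 1 to 5, and knockout replicates 1 to 4 had 437, 392, 405 and 505 CPM. WT replicate 3 was the only WT library within the knockout range, and the other 4 were above every knockout. The means were 544 ± 89.7 CPM (SD, n = 5) and 435 ± 50.7 CPM (SD, n = 4), a log2 fold change of -0.32 (95% interval -0.67 to 0.03, edgeR adjusted p 0.211). The lower end of the interval corresponds to 62.7% of WT.

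Efcab2 (ENSMUSG00000026495, chromosome 1, 178406085 to 178484513) encodes a subunit of the nexin-dynein regulatory complex, which links neighbouring doublets of the axoneme. It had 77.5, 78.5, 62.9, 77.7 and 81.3 CPM in WT replicates 1 to 5, and knockout replicates 1 to 4 had 64.7, 88.9, 58.8 and 73.1 CPM. The knockout libraries lay on both sides of the WT values. The log2 fold change was -0.08 (95% interval -0.41 to 0.24, edgeR adjusted p 0.749).

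Efcab9 (ENSMUSG00000044056, chromosome 11, 32522751 to 32532081) encodes a calcium sensor of CatSper, the calcium channel of the sperm tail, where it pairs with the subunit encoded by Catsperz. It had 97.6, 92.5, 62.1, 90.8 and 96.5 CPM in WT replicates 1 to 5, and knockout replicates 1 to 4 had 78.3, 152, 90.03 and 116 CPM. It was the only one of the 8 genes with a higher mean in Rfx2-/- testes, and the 2 highest values were knockout libraries while the other 2 were within the WT range. The means of 87.9 ± 14.7 CPM (SD, n = 5) and 109 ± 32.5 CPM (SD, n = 4) gave a log2 fold change of 0.31 (95% interval -0.14 to 0.76, edgeR adjusted p 0.343). Without Rfx2-/- replicate 2 it was 0.11. Its partner Catsperz averaged 257 ± 36.1 CPM over the 5 WT libraries (SD) and 389 ± 130.3 CPM over the 4 knockouts (SD), which is 0.60 on the log2 scale with an adjusted p of 0.0918 in edgeR. Catsperz was also highest in Rfx2-/- replicate 2, at 553 CPM, followed by replicate 4 at 435 CPM. Rfx2-/- replicates 1 and 3 (290 and 278 CPM) were within its WT range of 221 to 317 CPM.

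Efcab5 (ENSMUSG00000050944, chromosome 11, 77089915 to 77188968) had 352, 357, 362, 432 and 387 CPM in WT replicates 1 to 5, and knockout replicates 1 to 4 had 431, 136, 292 and 333 CPM. Rfx2-/- replicate 1 was close to the highest WT library and the other knockouts were below all WT libraries, replicate 2 by the most. The means were 378 ± 32.9 CPM (SD, n = 5) and 298 ± 123 CPM (SD, n = 4), and the log2 fold change was -0.34 (95% interval -0.91 to 0.22, edgeR adjusted p 0.407). It was -0.10 without Rfx2-/- replicate 2.

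The 8 genes were then compared directly by their ratio within each library, which does not depend on library scaling. For all 12 pairs of a called gene (Efcab10 or Efcab1) and one of the other 6, the log2 ratio differed between genotypes, by 2.91 to 3.73 in size (exact two-sided permutation test over 126 relabellings, p 0.0159, the smallest this design allows, and 0.037 after adjustment over 28 pairs). These 12 pairs were sorted by calls from the same libraries, and each reuses Efcab10 or Efcab1. Their p-values thus restate the calls and are no separate evidence, and the sizes are what the ratios add. None of the 15 pairs among the other 6 genes passed the adjusted limit of 0.05, and 2 of them, Efcab9 with Efcab2 and Efcab9 with Efcab6, had an unadjusted exact p of 0.0317. Efcab10 and Efcab1 differed by 0.08 in log2 ratio (exact permutation adjusted p 0.711), with SDs of 0.18 in WT and 0.22 in Rfx2-/- testes. This comparison depended on the 0.5 added to each count before the ratio was taken. With 3 added the difference was 0.35 (exact permutation p 0.0159, adjusted p 0.0342), and Efcab1 had as few as 5 counts in a library.

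Levels of different genes were compared per kilobase of merged exon. In WT testes Efcab6 had 109 ± 17.9 CPM per kb, Efcab9 84.3 ± 14.1, Efcab5 81.2 ± 7.07 and Efcab10 76.0 ± 12.8 CPM per kb (SD, n = 5), and the library ranges of neighbours in this order overlapped. Efhb (37.6 ± 4.17 CPM per kb), Efcab2 (21.1 ± 2.03), Efhc2 (11.7 ± 1.71) and Efcab1 (2.23 ± 0.46 CPM per kb) followed, each with a range apart from its neighbours. Per kb, Efcab10 was thus one of the 4 abundant genes of the group in WT, above 92.4% of all genes tested, and Efcab1 was above 29.3%. In Rfx2-/- testes Efcab10 moved from the fourth to the seventh place, with 7.29 ± 2.88 CPM per kb (SD, n = 4), and overlapped Efhc2 (11.5 ± 1.87). Efcab1 remained last at 0.227 ± 0.12 CPM per kb, and Efcab9 had the highest mean in this genotype at 104.5 ± 31.2 CPM per kb.

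Rfx2-/- replicate 2 differed from the other knockout libraries according to transcript length, and this touched several of the genes. In that library the level of Efcab10 (673 bases of exon) and Efcab9 (1043 bases) exceeded the mean of the other knockouts by 0.68 and 0.69 on the log2(CPM + 0.5) scale, and the median difference over all tested genes under 1500 bases was 0.67. Efcab5 (4654 bases) was lower by -1.35, where genes of 4500 bases or more had a median of -0.57. The relation was not uniform, since Efcab6 (5012 bases) differed by -0.19 and Efhb (2661 bases) by -0.51, although genes of 1500 to 3000 bases had a median of 0.26. With a length trend removed from each library, the log2 fold change was -3.50 for Efcab10, -3.22 for Efcab1, 0.11 for Efcab9 and -0.31 for Efcab5, with the calls of all 8 genes as before. Without this library Efcab10 was at -3.52 and Efcab1 at -3.32. What gave this library its length pattern was not tested.

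**Figure D2:**
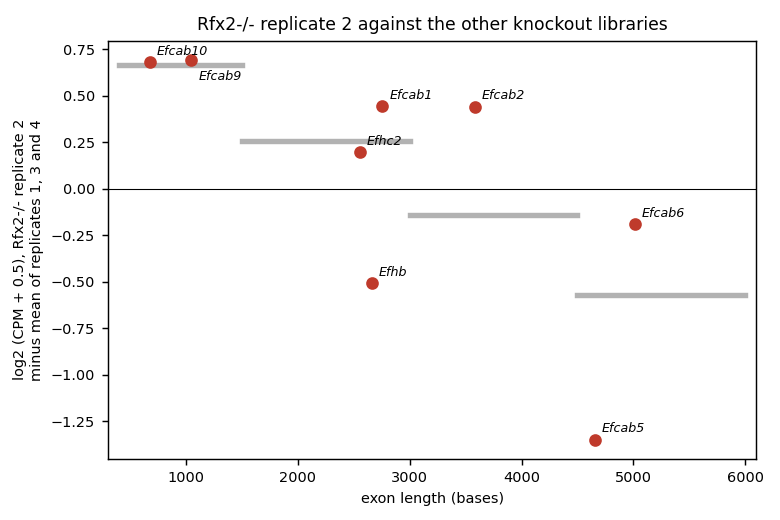
Difference of Rfx2-/- replicate 2 from the mean of replicates 1, 3 and 4 on the log2(CPM + 0.5) scale, against exon length in bases, for the 8 EF-hand genes (red points). Grey lines are medians of all tested genes in 4 length classes (under 1500, 1500 to 3000, 3000 to 4500 and from 4500 bases, the last drawn up to the edge of the panel). Efcab9 and Efcab10 lie near the line of short genes at 0.67 and Efcab5 lies lowest at -1.35.

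Other EF-hand genes were listed from general knowledge, of which 30 of 32 were in the table and 28 were tested. Of these, 4 were called lower and 0 higher (14.3% lower, against 3.68% of all genes), with a median log2 fold change of -0.15 and 15 below 0. Capsl and Caps2, both related to the calcium-binding protein calcyphosine, had log2 fold changes of -2.79 (SE 0.23) and -2.67 (SE 0.19). Cib4, a member of the calcium and integrin binding family, fell by 2.18 on the log2 scale (SE 0.28), and Calml4, a calmodulin-like protein, by 1.72 (SE 0.29). Their edgeR adjusted p-values were 5.41e-06, 1.55e-06, 2.74e-04 and 0.00213. Calml4 was not called without Rfx2-/- replicate 3 (adjusted p 0.0110) or without Rfx2-/- replicate 4 (adjusted p 0.0129). Cib2 had a log2 fold change of -1.24 (edgeR adjusted p 0.0232) and was called without Rfx2-/- replicate 2 (-1.57), with the length trend removed (-1.42) and by DESeq2 (adjusted p 0.00254). Calml3, another calmodulin-like gene, had -1.32 (edgeR adjusted p 0.0336), with all knockouts below WT, and was called by DESeq2 (adjusted p 0.00878). DESeq2 thus called 6 genes of this list lower, in place of 4. The genes of this list that were not called included the 3 calmodulin genes (0.18 to 0.45), the 4 centrin genes (0.28 to 0.57) and Efcab3, Efcab7, Efcab8, Efcab11 and Efcab14 (-0.57 to 0.15).

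**Figure D3:**
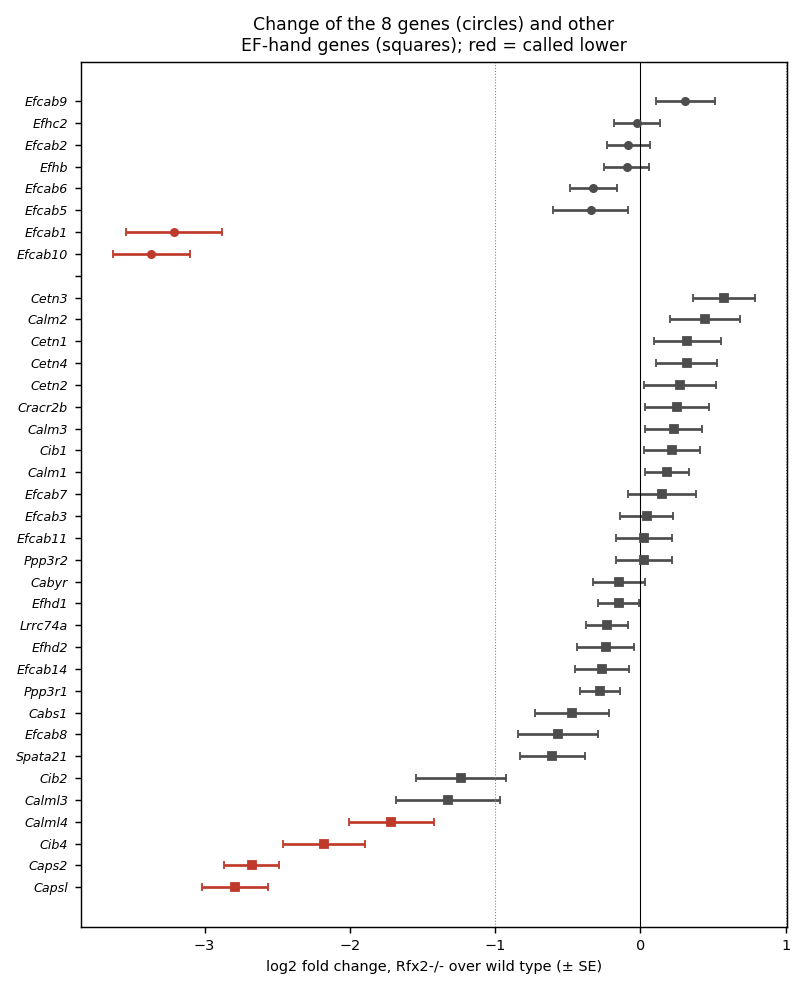
log2 fold change (Rfx2-/- over WT, ± SE, 5 and 4 libraries) of the 8 EF-hand genes (circles, top) and of 28 other tested EF-hand genes (squares, bottom), with red for genes called lower and dotted lines at the 2-fold limits. Efcab10 (-3.37) and Efcab1 (-3.21) are the red circles, and Capsl (-2.79) is the lowest of the squares.

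The structures to which the EF-hand proteins belong were compared in the same way. Of 5 genes of the outer dynein arm docking complex, Armc4 (-2.48) and Ttc25 (-1.13) were called lower, and the median was -0.40. Ttc25 lost its call without Rfx2-/- replicate 2 (-0.97) and without Rfx2-/- replicate 3 (adjusted p 0.0130). Of 10 genes of the nexin-dynein regulatory complex, 4 were called lower with a median of -0.67. They were Drc1 (-6.19), Drc7 (-4.73), Ccdc65 (-2.99) and Gas8 (-1.39). Drc3 (-0.73, edgeR adjusted p 0.00499) was lower in every knockout library than in any WT library, with a change below 2-fold. The other uncalled genes of the list were Tcte1 (-0.60), Iqcd (-0.43), Fbxl13 (-0.07), Iqca (-0.06) and Iqcg (0.02). Efcab2 of the same complex was at -0.08.

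Of 19 tested genes of microtubule inner proteins, 7 were called lower, with a median of -0.28. The 6 with the largest change were Cfap161 (-5.28), Cfap53 (-4.66), Spag8 (-4.46), Tekt4 (-4.37), Cfap45 (-1.80) and Cfap52 (-1.67). Within this list Mns1 (0.72) and Ribc2 (0.82) were higher in every knockout library than in any WT library, with edgeR adjusted p-values of 0.00800 and 0.00554 and changes below 2-fold. Enkur (-0.88) and Tekt1 (-0.67) were lower in every knockout library than in any WT library. Their edgeR adjusted p-values were 0.00571 and 0.00873, and their changes were also below 2-fold. Enkur was called lower without Rfx2-/- replicate 2 (-1.04) and with the length trend removed (-1.055). Of 12 tested genes of the CatSper complex 0 were called by edgeR in either direction, with 2 higher and 0 lower at an unadjusted p under 0.05, and DESeq2 also called 0 lower. Catsper4, a pore-forming subunit, was above every WT library in all 4 knockouts, at 0.76 on the log2 scale and an adjusted p of 0.00515 in edgeR, a change below 2-fold. The median was 0.18, and Efcab9 of the same channel was at 0.31. No call was made for a list as a whole, and no list was tested against another.

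**Figure D4:**
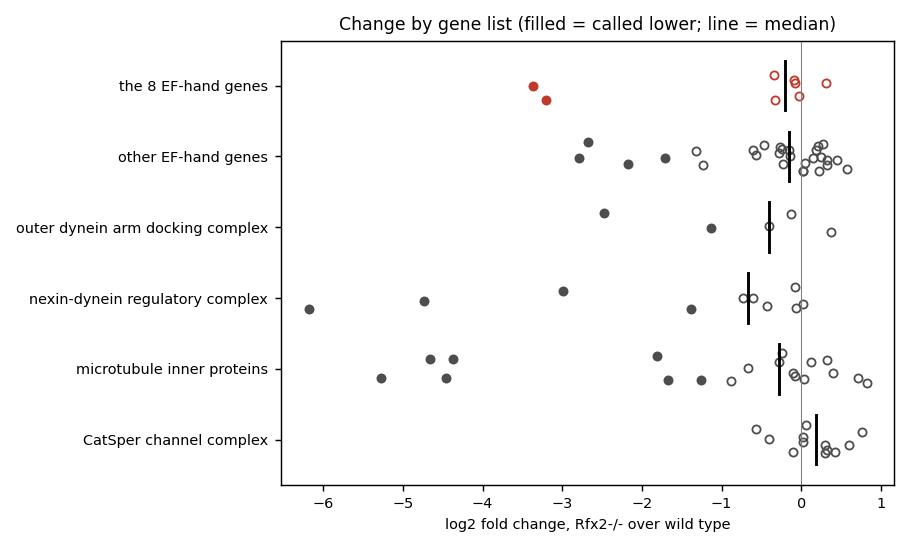
log2 fold change (Rfx2-/- over WT) of each tested gene in the group of 8 EF-hand genes (red) and in 5 lists of related genes (grey), with filled symbols for genes called lower and a vertical line at each median. Points are spread vertically only for legibility. The CatSper genes have no filled symbol, and the nexin-dynein regulatory complex reaches -6.19.

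The genes most like each EF-hand gene were sought by the root mean square difference of their deviations from the WT mean over the 9 libraries. Deviations were taken on the log2(CPM + 0.5) scale. For Efcab10 they were Ccdc74a (0.16) and 1700109H08Rik (0.20), and for Efcab1 Arl13a (0.15) and Rsph14 (0.16). Efcab1 ranked 46th by likeness to Efcab10, and Efcab10 ranked 94th by likeness to Efcab1, at a difference of 0.50. Efcab1 had 0.327 to 0.963 CPM in the knockouts, so the added 0.5 made its fall smaller on this scale. Its knockout deviations were -2.16 to -2.98, against a fitted log2 fold change of -3.21. The difference of 0.50 and the nearest genes of Efcab1 therefore depend on the added value. For the genes that were not called the nearest were Fem1b and Ccnb1 for Efhc2 (0.074 and 0.085), Otud7b and Wipi1 for Efhb (0.055 and 0.062), and B3gat2 and Fam170b for Efcab6 (0.058 and 0.064). They were Aven and Smpd5 for Efcab2 (0.029 and 0.068), Slc4a8 and Ttc41 for Efcab5 (0.044 and 0.059), and Myl4 and 1700018B08Rik for Efcab9 (0.063 and 0.083).

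Markers of testis cell types were followed beside these results. Elongating spermatid markers summed to 13092 to 25452 CPM in WT and 11570 to 15406 CPM in Rfx2-/- libraries, with a median log2 fold change of -0.57, 13 of 14 below 0 and 0 called by edgeR (9 lower and 0 higher at an unadjusted p under 0.05). Round spermatid markers summed to 1385 to 2249 and 1569 to 2231 CPM (median -0.03, 0 of 12 called, 3 higher and 0 lower at an unadjusted p under 0.05). Meiotic prophase markers had a median of 0.39, with 0 of 12 called and 5 higher and 0 lower at an unadjusted p under 0.05. Their sums were 3276 to 3631 CPM in WT and 3514 to 6011 CPM in Rfx2-/- libraries, with the highest in Rfx2-/- replicate 2. That library also had the highest knockout sum of the elongating and round spermatid, Leydig cell, macrophage and rete testis lists. Marker values without this library are not given here. Sertoli cell, Leydig cell and macrophage markers had medians of 0.24, 0.19 and 0.21 with 0 called and 3, 1 and 2 genes higher at an unadjusted p under 0.05. Of 8 markers of rete testis and efferent ducts, 4 were tested and 0 called, with 1 lower and 0 higher at an unadjusted p under 0.05 and a median of -0.05. The summed level of that list was 127 to 181 CPM in WT and 97.0 to 171 CPM in Rfx2-/- libraries. Foxj1, a ciliary transcription factor, made up most of it with means of 114 and 82.5 CPM (-0.47, edgeR adjusted p 0.139). Epcam had means of 29.2 and 38.4 CPM and Krt8 of 5.33 and 5.47 CPM, while Pax8 and Mcidas did not exceed 8 and 2 counts in any library. The paper reports that Rfx2-/- spermatids stop before they elongate, and describes Tnp mRNAs as already present at the end of the round stage. Tnp mRNA levels therefore do not count elongating cells, and whether the other markers of that list do was not tested. The paper also states that Tnp1 and Tnp2 mRNAs are not reduced in the knockouts. Here their log2 fold changes were -1.12 and -0.77 (edgeR adjusted p 0.0416 and 0.0927). Neither was called, and the genotypes overlapped for both. At an edgeR adjusted p of at most 0.05, 5 genes of the elongating spermatid list were lower and 0 higher. The part of cell composition in the changes of Efcab10 and Efcab1 was not tested.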

How the data were processed

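RNA of P30 testes was sequenced from 5 WT and 4 Rfx2-/- animals. The authors deposited raw read counts per Ensembl gene, as whole numbers without normalisation. According to the submitters' processing notes (STAR 2.4, featureCounts 1.4.6, GRCm38) and the supplementary methods, single reads were mapped with STAR, those with several genomic positions were discarded, and reads over exons of a single gene were counted. The supplement also describes a Bowtie mapping, and STAR is taken here because the processing notes name it. Whether strand was used is not given in the sources used here. None of the 8 genes shares exonic bases with another annotated gene.

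Groups were taken from the genotype labels and columns from the animal numbers. Replicate numbers follow deposition order and pair no animals. Gene names, positions and exon lengths came from GENCODE M21, which holds 96.6% of the IDs. edgeR 4.0.16 (R 4.3.3) gave quasi-likelihood tests of the counts (TMM scaling, filterByExpr, robust fit, genotype as the single factor), with Benjamini-Hochberg adjustment over 15613 genes. SE is the log2 fold change divided by the root of F, and 95% intervals use the fit's degrees of freedom. Pair ratios were taken after adding 0.5 counts. The script was tested on simulated counts. Alternatives were DESeq2 1.42.0 and its size factors, total counts, no filter, unadjusted p, a test against the 2-fold limit, removal of a length trend (lowess), a non-robust fit and omission of each library.

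Total counts of 13574764 to 28800855 set a floor of 3 counts at 0.0996 to 0.234 CPM, the upper limit for 0 counts. All genes, lists and the naming rule were chosen with earlier results of these data known. All 8 genes and Rfx2 are named, then called genes of the other lists (at most 6 each) and the 2 genes most alike. Other list genes, namely Catsperz, Catsper4, Cib2, the uncalled EF-hand genes, Mns1, Ribc2, Foxj1, Epcam, Krt8, Pax8 and Mcidas, were named after their values were seen. So were Enkur, Tekt1, Tnp1, Tnp2 and the uncalled genes of the nexin-dynein regulatory complex. Of the listed symbols, 12 were not matched to a row and were not analysed here. A further gene of the list of other EF-hand genes is not reported here and was left out of its counts.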

Additional observations from a re-analysis of the deposited data

Results flagged for a closer look

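Among the values of the 8 genes and Rfx2 in each genotype, 18 groups of libraries were examined for a single library far from the rest, of which chance gives about 0.9. There were 2 such values, both in wild type replicate 3. Efcab2 had 62.9 CPM there against 77.5 to 81.3 CPM in the other wild type libraries, and Efcab9 had 62.1 CPM against 90.8 to 97.6 CPM. In all, 7 of the 8 EF-hand genes (all but Efcab5) were lowest in this library among the 5 wild type libraries, as were 31.9% of all genes tested. All 14 elongating spermatid markers were also lowest there, with a summed level of 13092 CPM against 19269 to 25452 CPM. Their part in the values of Efcab2 and Efcab9 was not tested.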

How the results depend on the processing

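Efcab10 and Efcab1 were called lower, and the other 6 genes were not called, under all 17 alternatives. The log2 fold change ranged from -3.52 to -3.17 for Efcab10 and from -3.52 to -2.98 for Efcab1, with adjusted p-values up to 3.08e-05 and 3.14e-04. Omission of single libraries left 2 genes called lower and 0 higher. Total counts raised the median of all genes from 0.03 to 0.16, and there Efhc2 (0.12), Efhb (0.041) and Efcab2 (0.056) changed sign. Efhc2 also did so without wild type replicates 4 (0.0046) or 5 (0.05) and without Rfx2-/- replicates 1 (0.11) or 3 (0.02), Efhb without Rfx2-/- replicate 2 (0.020) and Efcab2 without Rfx2-/- replicate 3 (0.036). Without single libraries the ranges were -0.074 to 0.11 for Efhc2, -0.13 to 0.020 for Efhb and -0.20 to 0.036 for Efcab2. Rfx2 was not called in the test against the 2-fold limit (adjusted p 0.0282). Of the docking complex 1 gene was called with total counts, and 1 to 2 without single libraries. Without single libraries there were 3 to 5 calls among other EF-hand genes, 4 in the nexin-dynein regulatory complex, 7 to 8 among microtubule inner proteins and 0 among CatSper genes. DESeq2 and the unadjusted p each gave 6 among other EF-hand genes. The number of pairs that differed was 0 without any 1 library, where the smallest possible exact permutation p (0.0286 or 0.0357) no longer passes adjustment, and the differences of the 12 pairs were then 2.58 to 4.04. With 3 counts added in place of 0.5 the pairs numbered 13, the further one being Efcab1 with Efcab10. The low counts of Efcab1 limit its precision. No paired analysis was possible because the labels give each mouse its own number.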
